A study of Homo sapiens with 6 samples.

Results

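The aminoacyl-tRNA synthetases, the enzymes that load each amino acid onto its tRNA, were examined in human HEK293 Flp-In cells that make the RNA-binding protein TRIM71 and in their parental line. The members are 38 named genes: 19 synthetase genes of the cytosol, 16 of the mitochondrion and 3 scaffold proteins (AIMP1, AIMP2 and EEF1E1) of the cytosolic multi-synthetase complex. A gene was represented by the probeset annotated to its symbol alone, and by the brighter probeset where it had several. By this rule 36 of the 38 members were found among 18404 genes, all 35 synthetase genes and AIMP1. AIMP2 and EEF1E1 had no such probeset and were not analysed here. VARS2 was the single member with 2 probesets.

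RNA was measured on 6 Affymetrix arrays. On 3 of them was RNA of the TRIM71 line, HEK293 Flp-In cells that constitutively express TRIM71 with a FLAG-HA tag. The other 3 carried RNA of the wild-type parental HEK293 Flp-In line. Both lines were grown in DMEM with 2 mM glutamine and 10% fetal calf serum, and the labels mention hygromycin B, at 50 ug/ml, solely for keeping the TRIM71 line, so transgene, drug and other differences between the lines cannot be told apart. Whether the TRIM71 line was a single clone, which promoter drives the transgene and whether the arrays of a line came from separate cultures is not stated in the labels. All p-values therefore reflect array-to-array spread within each line, part or all of which may be technical.

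The cytosolic enzymes charge tRNAs for translation on cytosolic ribosomes, and the mitochondrial set, also encoded in the nucleus, charges tRNAs for the few proteins made inside mitochondria. Several cytosolic synthetases are held with the scaffold proteins in the multi-synthetase complex, and GARS1 and KARS1 supply both compartments. In animal cells, uncharged tRNA activates the kinase GCN2 (EIF2AK4), which raises translation of the transcription factor ATF4, and many cytosolic synthetase genes are known ATF4 targets. ATF4 binds, with a C/EBP partner, DNA elements that hold the letters TGATGNAA.

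These letters were searched on both strands of RefSeq promoter windows of 300 bases, 250 before and 50 after the annotated start (GRCh38.p14), which were available for 33 of the 38 members, 16 of them cytosolic and 14 mitochondrial. A match was present for 7 cytosolic genes (CARS1, AARS1, GARS1, MARS1, TARS1, NARS1 and IARS1), or 43.8%, for 1 mitochondrial gene (YARS2), or 7.14%, and for 1217 of 27305 genes in the whole table, or 4.46%. The 6 cytosolic matches with the largest change are shown because their genes are among those described next as lower, with the YARS2 match beside them. Each line gives 40 bases, 5′ to 3′ on the strand of the gene, and capitals mark the match, which is TGATGNAA or its reverse complement. No other motif was searched.
CARS1 (chr11:3057402-3057441, minus strand): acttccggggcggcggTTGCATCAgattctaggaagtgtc
AARS1 (chr16:70289670-70289709, minus strand): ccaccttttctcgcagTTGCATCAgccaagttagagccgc
GARS1 (chr7:30594829-30594868, plus strand): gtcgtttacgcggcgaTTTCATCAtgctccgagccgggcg
MARS1 (chr12:57488048-57488087, plus strand): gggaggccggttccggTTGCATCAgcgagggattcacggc
TARS1 (chr5:33440951-33440990, plus strand): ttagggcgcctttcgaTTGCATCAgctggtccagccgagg
NARS1 (chr18:57621799-57621838, minus strand): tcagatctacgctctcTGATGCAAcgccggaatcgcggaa
YARS2 (chr12:32756071-32756110, minus strand): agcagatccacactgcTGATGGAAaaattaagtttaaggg

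The match lay across the annotated start in CARS1 (from base -2 to 6) and MARS1 (from -4 to 4), just after it in TARS1 (3 to 10) and NARS1 (15 to 22), and shortly before it in IARS1 (-13 to -6) and GARS1 (-33 to -26). In AARS1 it began 187 bases before the start, at -187, and in YARS2 at -197. CARS1, GARS1 and TARS1 had a second annotated start whose window held no match. A match is a description of these letters in these windows, not evidence of binding, and an absent match says nothing about a gene beyond its window.

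Values below are log2 expression of the probeset, fold changes set TRIM71 cells over parental cells, and a gene was said to have risen or fallen where limma's adjusted p, over all 32321 probesets, was under 0.05. TRIM71 itself read 10.63, 10.86 and 10.72 on the TRIM71 arrays, against 7.23, 7.54 and 7.44 on the parental arrays. Array medians lay between 6.90 and 6.97, and Pearson correlations were at least 0.996 between arrays of the same line and 0.991 to 0.994 across lines. Of markers reported for HEK293, NEFL averaged 10.96 in the TRIM71 line and 12.41 in the parental line (adjusted p = 9.55e-05), and INA averaged 10.37 in the TRIM71 line and 10.99 in the parental line (adjusted p = 0.000795), so that both fell. VIM rose, at 11.51 in the TRIM71 line and 11.11 in the parental line (adjusted p = 0.00277). The part of these marker differences in the results was not tested. PAX2 (7.36 in the TRIM71 line and 7.15 in the parental line) and NEFM (6.26 in the TRIM71 line and 6.54 in the parental line) were near the median of all probesets, 6.94. Of 8 measured leukocyte, endothelial and hepatocyte markers, 7 had group means between 3.50 and 5.47, and APOA1 stood at 6.98 in both lines. None of those 8 passed the test.

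Of the 19 cytosolic synthetase genes, 12 fell in the TRIM71 line (63.2%) and 0 rose, with 7 that did not pass the limma test. Among all 18404 genes 12.2% fell and 10% rose. At an unadjusted p under 0.05, 12 cytosolic genes were lower and 1, RARS1, was higher, while 19.5% of all genes were lower and 17% higher. The median log2 fold change of the 19 was −0.28, against −0.01 over all genes. The falls ran from 1.19-fold for IARS1 to 1.83-fold for CARS1, and 3 of them reached 1.5-fold (CARS1, YARS1 and SARS1), which 2.71% of all genes did. In the bulk RNA of a culture, fewer cells with a transcript and less of it per cell cannot be told apart.

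**Figure D1:**
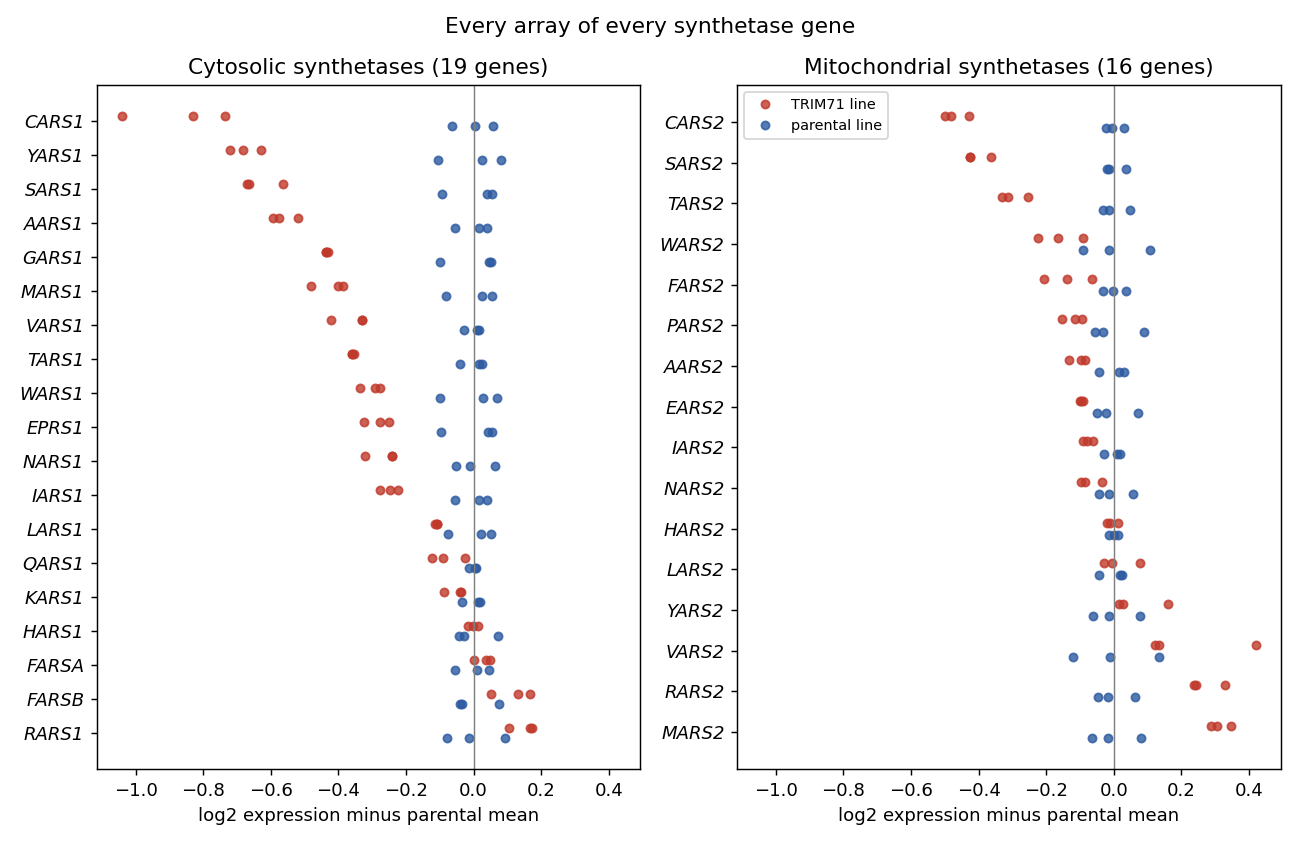
Log2 expression of each synthetase gene on each of the 6 arrays, as the difference from the parental mean of that gene (x axis), for 19 cytosolic genes (left) and 16 mitochondrial genes (right), with TRIM71 arrays in red and parental arrays in blue, ordered by the change. The 3 TRIM71 points of 15 cytosolic genes lie below all 3 parental points, and those of RARS1 lie above them, while among the 16 mitochondrial genes the TRIM71 points of 9 lie below all parental points, farthest for CARS2, SARS2 and TARS2, and those of 2, MARS2 and RARS2, lie above them. Over all 18404 genes the TRIM71 arrays lay wholly below for 23.4% and wholly above for 20.2%.

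CARS1, the cysteine enzyme, had the largest fall. It read 7.64, 7.74 and 7.43 on the TRIM71 arrays, against 8.48, 8.53 and 8.41 on the parental arrays (log2 fold change −0.87, SE 0.09, adjusted p = 0.00187). The groups were well apart, although the TRIM71 arrays spread more (SD 0.16) than the parental arrays (SD 0.06). YARS1, the tyrosine enzyme, read 10.31, 10.36 and 10.27 on the TRIM71 arrays, against 11.07, 11.01 and 10.88 on the parental arrays (−0.68, SE 0.06, adjusted p = 0.00152). SARS1, which loads serine, read 10.59, 10.70 and 10.60 on the TRIM71 arrays, against 11.32, 11.30 and 11.17 on the parental arrays (−0.63, SE 0.06, adjusted p = 0.00178). AARS1, which loads alanine, read 10.72, 10.70 and 10.78 on the TRIM71 arrays, against 11.31, 11.34 and 11.24 on the parental arrays (−0.56, SE 0.05, adjusted p = 0.00129). In all 4 genes every TRIM71 array lay below every parental array by more than the range of either group.

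A middle set fell by 0.36 to 0.43 on the log2 scale. GARS1, the glycine enzyme of both compartments, read 11.47 on each of the 3 TRIM71 arrays, against 11.95, 11.95 and 11.80 on the parental arrays (−0.43, adjusted p = 0.00466). MARS1, the methionine enzyme and a member of the complex, read 11.01, 11.10 and 11.09 on the TRIM71 arrays, against 11.52, 11.55 and 11.41 on the parental arrays (−0.42, adjusted p = 0.00528). VARS1, the valine enzyme, changed by −0.36 (adjusted p = 0.00519) and TARS1, the threonine enzyme, by −0.36 (adjusted p = 0.00385). The 3 TRIM71 arrays of TARS1 all read 10.87, and its parental arrays 11.25, 11.24 and 11.19. The groups of these 4 genes did not overlap.

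WARS1, the tryptophan enzyme, is also known as an interferon-induced gene. It read 11.00, 11.02 and 10.95 on the TRIM71 arrays, against 11.36, 11.32 and 11.19 on the parental arrays (−0.30, adjusted p = 0.0183). EPRS1, a fused enzyme for glutamate and proline, changed by −0.28 (adjusted p = 0.0215), the asparagine enzyme NARS1 by −0.27 (adjusted p = 0.0191) and the isoleucine enzyme IARS1 by −0.25 (adjusted p = 0.0179). Their groups did not overlap either. These 4 calls were not firm with 1 array left out. Each of them ended without TRIM71 replicate 1, without TRIM71 replicate 2 and without parental replicate 2, which left 8 cytosolic falls in each case. The adjusted p lay between 0.0511 and 0.0821 for the calls that ended with 1 array left out. Without TRIM71 replicate 3 the calls of WARS1 and IARS1 ended, and without parental replicate 1 those of EPRS1, NARS1 and IARS1. Over the arrays left out, their log2 fold changes stayed between −0.35 and −0.23, and the other 8 cytosolic falls passed throughout.

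The 12 fallen genes also shared a pattern inside the parental line. Parental replicate 3 had the lowest of the 3 parental values for 12 of the 12, as it did for 1007 of the 2244 genes that fell (44.9%) and 1 of the 7 cytosolic synthetase genes that did not pass. It was lowest for 43.8% of the 16 mitochondrial genes and for 28.7% of all genes. The median deviation of the 19 cytosolic genes from their parental means was −0.32, −0.28 and −0.28 on the TRIM71 arrays, against 0.03, 0.02 and −0.05 on parental replicates 1, 2 and 3. ATF4 mRNA read 10.63, 10.63 and 10.59 on the TRIM71 arrays, against 11.33, 11.28 and 11.16 on the parental arrays. It fell in the TRIM71 line (−0.64, adjusted p = 0.00134), and replicate 3 was its lowest parental array. Replicate 3 was also lowest for XPOT, SEPSECS, TUFM, GCN1 and IMPACT, fallen genes given below, while EEF1B2 and EEF1D were lowest on parental replicate 1. A part of ATF4 in the falls was not tested.

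The 7 cytosolic genes that did not pass were LARS1 for leucine (−0.11, adjusted p = 0.213), QARS1 for glutamine (−0.08, adjusted p = 0.34), KARS1 for lysine (−0.06, adjusted p = 0.495), HARS1 for histidine (0.00, adjusted p = 0.987), FARSA and FARSB, the subunits of the phenylalanine enzyme (0.03 and 0.12, adjusted p = 0.766 and 0.241), and RARS1 for arginine (0.15, adjusted p = 0.155). Their 95% intervals lay between −0.23 and 0.29. An interval of HARS1 from −0.12 to 0.12 leaves out a change the size of that of any of the 12 fallen genes. LARS1 read 11.01 on each TRIM71 array, against 11.14, 11.17 and 11.05 on the parental arrays, so its groups did not overlap. The TRIM71 values of QARS1 and KARS1 also lay wholly below their parental values. RARS1 read 10.63, 10.64 and 10.57 on the TRIM71 arrays, against 10.55, 10.38 and 10.45 on the parental arrays. Among the cytosolic members it was the gene whose TRIM71 values were all above its parental values. Over all genes the TRIM71 arrays lay wholly below for 23.4% and wholly above for 20.2%.

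**Figure D2:**
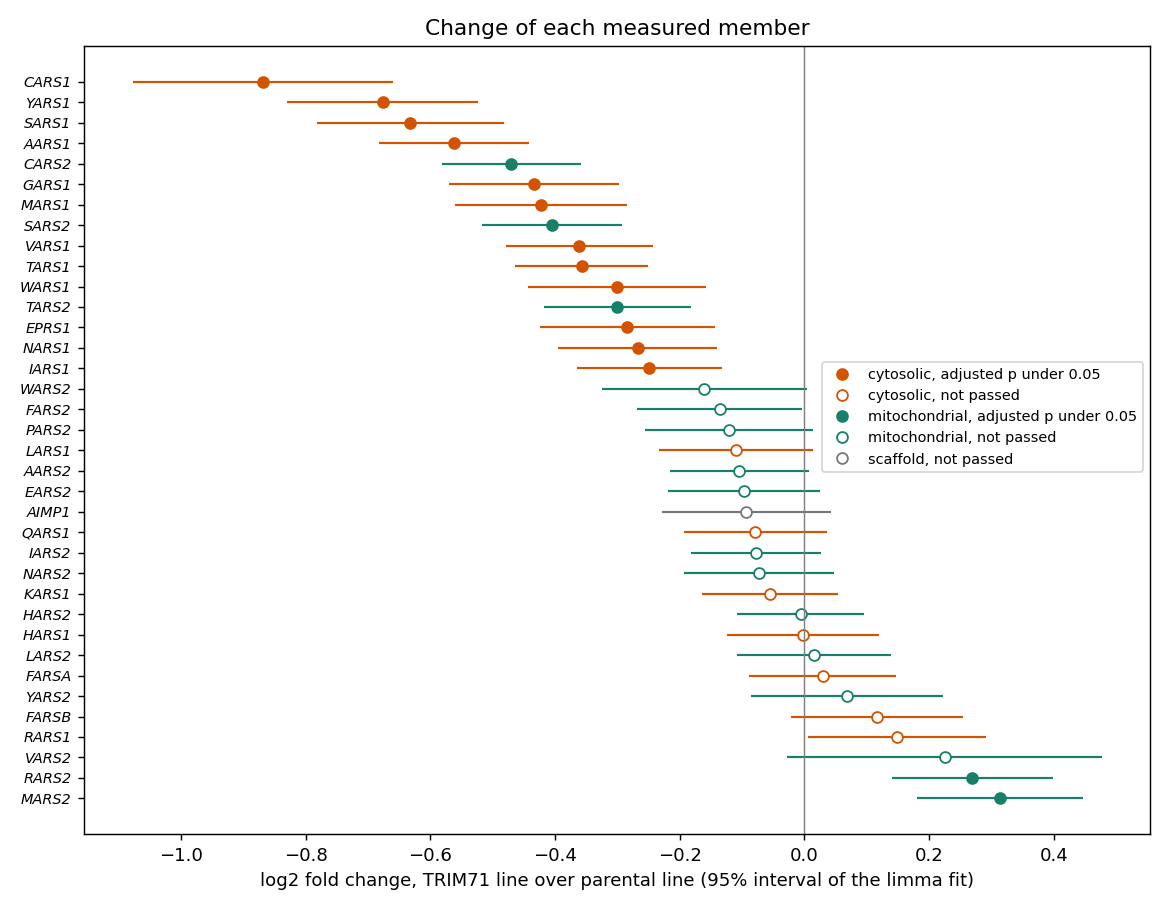
Log2 fold change of the 36 measured members, TRIM71 line over parental line (x axis), with the 95% interval of the limma fit, for cytosolic (orange), mitochondrial (green) and scaffold (grey) genes; filled points passed at an adjusted p under 0.05. The filled points to the left of 0 are 12 cytosolic and 3 mitochondrial genes, and those to the right are the mitochondrial genes RARS2 and MARS2.

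Within the multi-synthetase complex, 3 of 7 cytosolic enzymes fell (EPRS1, IARS1 and MARS1), with a median of −0.11. AIMP1, the scaffold protein that was measured, read 8.56, 8.62 and 8.60 on the TRIM71 arrays, against 8.76, 8.70 and 8.60 on the parental arrays and did not pass (−0.09, adjusted p = 0.343). Outside the complex 9 of 12 enzymes fell, with a median of −0.36, and those that did not pass were HARS1, FARSA and FARSB. The synthetases also divide by the fold of their catalytic domain, and 6 of 9 cytosolic class I enzymes (median −0.30) and 5 of 9 class II enzymes (median −0.27) fell, with EPRS1, which holds both folds, counted apart. Among all genes 12.2% fell and 10% rose. None of these splits was tested.

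A list of 13 cytosolic synthetases described as ATF4 targets in mouse or human cells was drawn up from general knowledge. Of these, 12 fell and LARS1 did not pass, with a median of −0.36, and of the 6 off the list 0 fell and 0 rose, with a median of 0.01. Among all genes 12.2% fell and 10% rose. At an unadjusted p under 0.05, 1 of the 6 off the list was higher, as were 17% of all genes. The TRIM71 arrays lay wholly below for 13 of the 13 and for 2 of the 6, and wholly above for 1 of the 6. Over all genes these shares were 23.4% below and 20.2% above. Of the 10 fallen cytosolic genes with a promoter window, 7 held the letters TGATGNAA, and of the 6 that did not pass, 0 did. Among all genes with a window the share was 4.46%. The 10 fallen genes had 15 windows and the 6 that did not pass had 6, so more sequence per gene was searched for the fallen genes. The split by match was not tested. YARS1, VARS1 and LARS1 had no window in the table, and SARS1, WARS1 and EPRS1 fell with no match in theirs. The list was made with earlier results of these arrays known, so its split is not independent evidence.

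Of the 16 mitochondrial synthetase genes, 3 fell (18.8%), 2 rose (12.5%) and 11 did not pass, shares near those of all genes (12.2% and 10%). The TRIM71 arrays lay below all parental arrays for 9 of the 16 and above them for 2, against 23.4% and 20.2% of all genes. Their median log2 fold change was −0.09. CARS2, the mitochondrial cysteine enzyme, read 10.11, 10.16 and 10.09 on the TRIM71 arrays, against 10.57, 10.62 and 10.59 on the parental arrays (−0.47, SE 0.05, adjusted p = 0.00179). SARS2, for serine, read 9.45, 9.51 and 9.45 on the TRIM71 arrays, against 9.91, 9.86 and 9.86 on the parental arrays (−0.40, SE 0.05, adjusted p = 0.00308). TARS2, for threonine, read 8.97, 8.98 and 9.04 on the TRIM71 arrays, against 9.28, 9.35 and 9.27 on the parental arrays (−0.30, SE 0.05, adjusted p = 0.00972). The groups of the 3 genes did not overlap, and the cytosolic enzymes for the same amino acids, CARS1, SARS1 and TARS1, fell as well.

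The rises were those of MARS2 and RARS2, the mitochondrial enzymes for methionine and arginine. MARS2 read 9.63, 9.69 and 9.65 on the TRIM71 arrays, against 9.42, 9.28 and 9.32 on the parental arrays (0.31, SE 0.06, adjusted p = 0.0126). RARS2 read 10.18, 10.09 and 10.09 on the TRIM71 arrays, against 9.91, 9.80 and 9.83 on the parental arrays (0.27, SE 0.05, adjusted p = 0.0193). Neither call was firm: both ended without TRIM71 replicate 2 (adjusted p = 0.0505 for MARS2 and 0.0525 for RARS2) or parental replicate 2 (0.0509 and 0.0757), and that of RARS2 also without TRIM71 replicate 1 (0.0701) or parental replicate 3 (0.0649).

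Both risen genes lay among neighbours that were higher too. The 43 other measured genes within 5 Mb of MARS2 on chromosome 2 had a median log2 fold change of 0.22, with 20 risen and 4 fallen. The 43 within 5 Mb of RARS2 on chromosome 6 had a median of 0.15, with 13 risen and 3 fallen. Among all genes 10% rose and 12.2% fell. The median over all measured genes of chromosome 2 was 0.08, and that of chromosome 6 was −0.03. For the other 34 members this local median lay between −0.09 and 0.06, and the lower end belonged to CARS2 on chromosome 13, with 9 of 40 neighbours fallen and 1 risen. Around the 12 fallen cytosolic genes, which are spread over 10 chromosomes, it lay between −0.05 and 0.05. These ranges hold for 5 Mb. Within 2 Mb the local median was 0.26 for MARS2, 0.16 for RARS2 and 0.21 for FARSB, with 4 of 13 neighbours of FARSB risen and 0 fallen. It was 0.11 for NARS2, 0.11 for YARS2, 0.07 for TARS1 and −0.12 for CARS2. The part of the neighbourhood in the changes of MARS2, RARS2, FARSB and CARS2 was not tested.

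**Figure D3:**
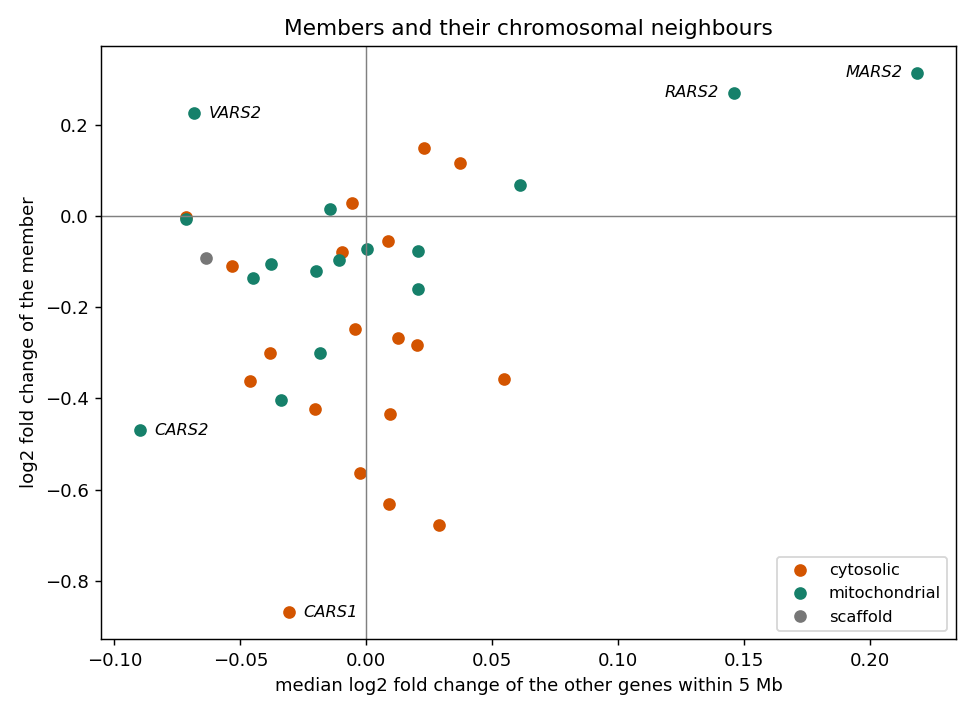
Log2 fold change of each of the 36 members (y axis) against the median log2 fold change of the other measured genes within 5 Mb (x axis), coloured by compartment. MARS2 (0.31 beside a local median of 0.22) and RARS2 (0.27 beside 0.15) stand apart at the upper right, and the fallen cytosolic genes lie around a local median of 0.

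The mitochondrial genes that did not pass were WARS2 (−0.16), FARS2 (−0.14), PARS2 (−0.12), AARS2 (−0.10), EARS2 (−0.10), IARS2 (−0.08), NARS2 (−0.07), HARS2 (−0.01), LARS2 (0.01), YARS2 (0.07) and VARS2 (0.22), with adjusted p between 0.157 and 0.949. They load tryptophan, phenylalanine, proline, alanine, glutamate, isoleucine, asparagine, histidine, leucine, tyrosine and valine, in that order. The probesets of VARS2 disagreed. The brighter read 9.70, 9.41 and 9.40 on the TRIM71 arrays, against 9.15, 9.26 and 9.41 on the parental arrays, with 1 TRIM71 array well above the rest. The dimmer read 7.88, 7.995 and 7.95 on the TRIM71 arrays, against 8.20, 8.22 and 8.05 on the parental arrays (−0.21, adjusted p = 0.0741). No direction can be given for VARS2.

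For 13 amino acids a cytosolic and a mitochondrial member share a gene name apart from its final digit. The changes of these pairs were set against each other on each array. The difference, cytosolic minus mitochondrial change, was below 0 for 12 of 13 pairs and near 0 for histidine (0.00), with a median of −0.19. It was largest for tyrosine, where YARS1 fell and YARS2 did not pass (difference −0.74), and for methionine, where MARS1 fell and MARS2 rose (−0.74). For tyrosine the differences were −0.71, −0.79 and −0.74 on the TRIM71 arrays, against 0.00, 0.04 and −0.04 on the parental arrays, each relative to the parental mean. For methionine they were −0.77, −0.74 and −0.70 on the TRIM71 arrays, against −0.06, 0.12 and −0.06 on the parental arrays. Alanine (−0.46), cysteine (−0.40) and serine (−0.23) followed with no overlap, and valine (−0.59) rests on the brighter VARS2 probeset. Asparagine (−0.19), isoleucine (−0.17), tryptophan (−0.14) and arginine (−0.12) did not overlap either. For arginine neither gene was lower, with RARS1 at 0.15 and RARS2 at 0.27.

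Each of these 10 differences had a two-sided exact permutation p of 0.1, the smallest that 3 against 3 arrays allow. No pair could therefore pass a threshold of 0.05, before or after adjustment over the 13 pairs or over all 17 comparisons made. For threonine the difference was small (−0.06, exact p = 0.2), with TARS1 (−0.36) and TARS2 (−0.30) both fallen. TARS3, a further like-named synthetase outside the 38 members, was not part of this pair. It read 9.72, 9.80 and 9.72 on the TRIM71 arrays, against 9.65, 9.61 and 9.64 on the parental arrays. By limma it did not pass (0.11, adjusted p = 0.177). For leucine the difference was −0.13 (exact p = 0.2). Phenylalanine, glutamate and proline, whose cytosolic enzymes have 2 subunit genes or 1 gene for both amino acids, were compared after the values were seen. For phenylalanine the difference ran the other way, above 0 for both subunit genes. FARSA minus FARS2 was 0.18, 0.11 and 0.21 on the TRIM71 arrays, against 0.01, −0.09 and 0.08 on the parental arrays (difference 0.17, exact p = 0.1). FARSB minus FARS2 was 0.31, 0.19 and 0.26 on the TRIM71 arrays, against 0.08, −0.07 and 0.00 on the parental arrays (0.25, exact p = 0.1). The groups did not overlap in either comparison, again without a background share for such differences. EPRS1 minus EARS2, for glutamate, was −0.19 (exact p = 0.2), and EPRS1 minus PARS2, for proline, −0.16 (exact p = 0.3), with overlapping groups in both.

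**Figure D4:**
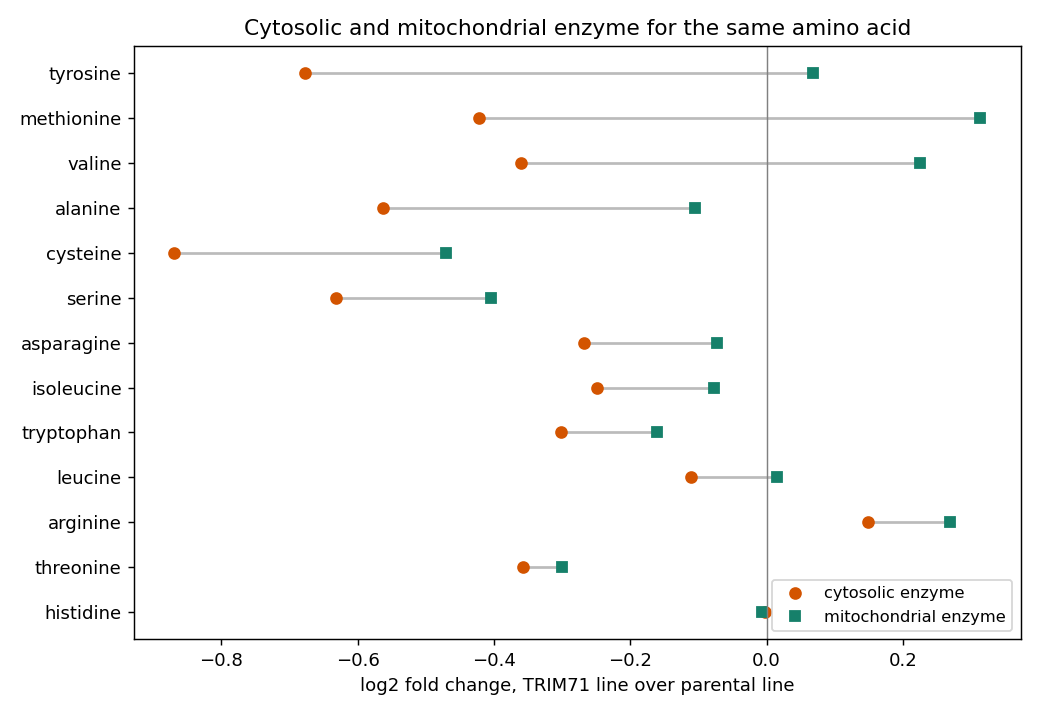
Log2 fold change, TRIM71 line over parental line (x axis), of the cytosolic enzyme (orange circle) and the mitochondrial enzyme (green square) for each of the 13 amino acids with a like-named gene pair, ordered by the difference. The circle lies to the left of the square for 12 of these amino acids, by 0.74 for tyrosine, and the symbols coincide for histidine.

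HARS1 and HARS2 are neighbours on chromosome 5, run in opposite directions and have annotated starts only 84 bases apart, so that a cytosolic and a mitochondrial gene share a promoter region. HARS1 read 11.34, 11.35 and 11.32 on the TRIM71 arrays, against 11.41, 11.30 and 11.31 on the parental arrays. HARS2 read 8.50, 8.51 and 8.53 on the TRIM71 arrays, against 8.54, 8.52 and 8.51 on the parental arrays. The groups overlapped for both genes, and the 95% interval of HARS2 ran from −0.11 to 0.10. The stretch of 184 bases that both promoter windows hold is shown because a cytosolic and a mitochondrial member start within it, with the bases between the annotated starts in capitals. It has no match to TGATGNAA.
HARS1 and HARS2 (chr5:140691321-140691504, plus strand): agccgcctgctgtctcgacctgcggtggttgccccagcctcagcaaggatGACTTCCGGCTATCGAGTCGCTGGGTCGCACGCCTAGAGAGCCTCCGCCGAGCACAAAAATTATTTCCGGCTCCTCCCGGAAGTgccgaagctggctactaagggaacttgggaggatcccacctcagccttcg

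Of 22 further genes, ATF4 and genes of tRNA charging and use, 21 were measured. Of these, 8 fell (38.1%), with ATF4, given above, among them. A rise was called for 1 (4.76%) and 12 did not pass, against 12.2% fallen and 10% risen among all genes. Their median was −0.14, against −0.01 over all genes. AARSD1 was not analysed here. XPOT, the exporter of tRNA from the nucleus, fell by 0.36 on the log2 scale (adjusted p = 0.00897), and SEPSECS, which completes the selenocysteine tRNA, by 0.42 (adjusted p = 0.00205). EEF1B2 (−0.30, adjusted p = 0.0299) and EEF1D (−0.23, adjusted p = 0.0194), subunits of the exchange factor of EEF1A, fell, as did the mitochondrial elongation factor TUFM (−0.22, adjusted p = 0.0237). EEF1A1, which brings charged tRNA to the ribosome, did not pass (0.01, adjusted p = 0.927). Of the sensors of uncharged tRNA, the kinase GCN2 (EIF2AK4) rose (0.21, adjusted p = 0.0276), while its activator GCN1 (−0.18, adjusted p = 0.0404) and its inhibitor IMPACT (−0.29, adjusted p = 0.0424) fell. The enzymes QRSL1, GATB and GATC, which make the mitochondrial glutamine tRNA by an indirect route in place of a synthetase, did not pass (0.09, −0.24 and −0.14). The calls of these further genes were not checked with arrays left out or under the other settings, which were applied to the members only.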

How the data were processed

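The deposited values were log2 expression per probeset and array. According to the submitters' processing notes the authors used RMA and affy. From 100 ng of total RNA, sense-strand cDNA was made and labelled, per the labels' protocols. RMA equalizes the arrays, so a change in total mRNA per cell is not visible. Software versions and the genome build are not given in the labels. Precision is limited by having 3 arrays a group.

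The annotation paired 19158 of 32321 probesets with 1 symbol, 1388 with several and 11775 with none. The 36 measured members matched RefSeq by gene ID. Limma 3.58.1 in R 4.3.3 (lmFit, eBayes) was fitted to all probesets with the line as its term and no filter, with Benjamini-Hochberg adjustment over all probesets. The 13 enzyme pairs, and 4 further comparisons added after the values were seen, were compared with two-sided exact permutation tests over arrays.

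All 38 members are named by rule, with other pathway genes where called. The members, lists, tests and alternatives (scaling, filter, probeset choice, replicate block, array weights, threshold, each array left out) were chosen with earlier results of these data known, and the neighbour windows, the printed YARS2 and HARS1/HARS2 sequences and the count of the lowest parental array after the values were seen.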

Additional observations from a re-analysis of the deposited data

How the results depend on the processing

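The count of 12 fallen cytosolic synthetases was 12 with an intensity trend, with trend and robust estimation, with quantile normalization, median centring or cyclic loess, with a filter on dim probesets, with 1 probeset per gene, with the mean of a gene's probesets and with array weights. It was 8 at an adjusted p under 0.01 and between 8 and 12 with 1 array left out. The count of risen cytosolic synthetases was 0 and that of fallen mitochondrial synthetases 3 under every setting listed here. The count of 2 risen mitochondrial synthetases was 1 with the replicate number as a block and 0 at an adjusted p under 0.01, and lay between 0 and 2 with 1 array left out. The cause was not tested. The deviations of same-numbered arrays correlated at 0.07, −0.19 and 0.11, and those of unlike-numbered arrays between −0.28 and 0.24. No pairing by replicate number was seen, but deviations from a mean of 3 arrays are tied to each other and cannot exclude it. With that block 9 cytosolic synthetases fell, without EPRS1 (adjusted p = 0.0741), IARS1 (0.0563) and NARS1 (0.0754), and MARS2 did not pass (0.0556). Directions turned only for genes near 0: HARS1 with array weights (0.016), and, over arrays left out, HARS1 (−0.024 to 0.034), HARS2 (−0.015 to 0.00081) and LARS2 (−0.016 to 0.036). VARS2 was 0.01 with the mean of its probesets. Other scalings moved the median of all genes by no more than from −0.01 to −0.03. With 3 arrays a group, a member that did not pass is not shown to be unchanged.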
